A study of Mus musculus with 6 samples.

Results

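Olfactory receptor genes form the largest gene family of the mouse, and their promoters made up 19925 of 474380 measured probes (4.20%) on a pair of promoter tiling arrays. A probe belonged to the set if the array annotation gave it a gene name that begins with Olfr and a number, or, at promoters that serve neighbouring genes in opposite directions, if another entry of its annotation did. That rule gave 884 olfactory receptor genes of 17098 named genes (5.17%), 437 on array 1 and 447 on array 2, and only 80 of the probes entered through the other entry. The rule itself uses names and no measured value. The study asked where SMAD proteins sit on promoters in R1 mouse embryonic stem cells, a line held undifferentiated without feeder cells in medium with leukemia inhibitory factor and serum replacement. Chromatin was immunoprecipitated with an antibody raised against the linker of recombinant human SMAD1 (called SMAD1/5), of SMAD2 or of SMAD4, and each immunoprecipitate, labelled with Cy5, was compared on the array with its input, whole cell extract labelled with Cy3. All 3 groups share the same line and untreated culture, and R1 is a single line whose strain background differs from that of the reference genome. There was 1 biological replicate per antibody on 2 arrays with different probes, so no p-value can be given, the small number of arrays sets the precision, and every SD or SE below is over genes or probes and not between experiments. For both SMAD2 samples the written protocol names an anti-Smad1/5 antibody, whereas the titles and sample types name SMAD2, and the groups follow the titles.

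Each olfactory receptor is a G protein-coupled receptor that binds odorants on the cilia of olfactory sensory neurons, and a mature neuron transcribes a single allele of a single receptor gene. The genes lie in clusters, have a coding region in a single exon, and are silent in most other cells. Class I receptors resemble those of fish and sit together on chromosome 7, and class II receptors are spread over most chromosomes. Receptors for BMP ligands activate SMAD1 and SMAD5, those for Activin and Nodal activate SMAD2, and each enters the nucleus bound to the shared partner SMAD4. SMAD proteins bind the short element CAGAC, and GC-rich elements such as GGCGCC. Receptor promoters are known instead for homeodomain sites, met by LHX2 and EMX2, and for sites of the EBF factors.

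The annotation placed 13638 of the receptor probes upstream of a gene, 614 at divergent promoters, 2185 inside genes and 3488 downstream of genes. A gene had a median of 24 probes (range 1 to 56). The genes fell on 17 chromosomes and into 48 clusters when a gap of more than 1 Mb between receptor probes ended a cluster, and the 21 clusters with at least 10 genes held 796 of the genes. RefSeq accessions tied 857 of the genes to an entry of the GRCm38.p6 gene table, 834 under the same symbol. By the receptor family numbers listed there, 78 genes were class I, all on chromosome 7, 760 were class II, and 46 had no single family. The linked gene models had a median length of 948 bp and 70.9% were shorter than 1000 bp, which is about the length of the coding exon, so for most of these genes the annotated start is close to the start of the coding region and may not be a mapped transcription start. Some probes serve neighbouring receptors (502 probes were shared by 2 of the genes), and close paralogs resemble each other in sequence, so the genes are not independent of each other. Signal from a paralog at a probe was not tested.

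Promoter windows of 300 bp (250 bp before to 50 bp after the start, RefSeq, GRCm38.p6) were found for 738 of the genes. They are shown for the receptor with the highest SMAD4 window (Olfr1350, chr7:6569743-6570042, plus strand), the receptor with the highest mean rank of the ratio over the 3 antibodies (Olfr3, chr2:36813041-36813340, minus strand), and the receptors at the bottom of that ranking (Olfr1168, chr2:88184629-88184928, plus strand, and Olfr1036, chr2:86074454-86074753, plus strand). Ric8b, which encodes a helper of the olfactory G protein and is no receptor, is set beside them to show a GC-rich promoter (chr10:84917363-84917662, plus strand). Sequences run 5′ to 3′ on the strand of the gene, and capitals mark CAGAC or its reverse complement, and GGCGCC.
Olfr1350: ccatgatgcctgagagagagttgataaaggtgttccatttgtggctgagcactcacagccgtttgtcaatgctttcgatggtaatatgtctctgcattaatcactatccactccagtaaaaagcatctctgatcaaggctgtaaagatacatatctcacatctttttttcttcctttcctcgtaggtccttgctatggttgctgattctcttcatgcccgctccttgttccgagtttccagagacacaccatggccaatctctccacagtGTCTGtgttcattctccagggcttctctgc
Olfr3: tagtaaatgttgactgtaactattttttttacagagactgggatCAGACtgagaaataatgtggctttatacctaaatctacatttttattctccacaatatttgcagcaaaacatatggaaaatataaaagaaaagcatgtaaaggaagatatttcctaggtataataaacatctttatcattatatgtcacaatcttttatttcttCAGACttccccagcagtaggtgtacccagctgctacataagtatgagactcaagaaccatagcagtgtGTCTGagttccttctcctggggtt
Olfr1168: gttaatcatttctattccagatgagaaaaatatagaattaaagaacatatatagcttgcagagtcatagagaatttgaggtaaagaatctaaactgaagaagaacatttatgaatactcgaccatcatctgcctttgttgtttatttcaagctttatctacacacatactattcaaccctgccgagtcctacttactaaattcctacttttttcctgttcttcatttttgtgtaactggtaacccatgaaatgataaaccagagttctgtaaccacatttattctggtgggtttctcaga
Olfr1036: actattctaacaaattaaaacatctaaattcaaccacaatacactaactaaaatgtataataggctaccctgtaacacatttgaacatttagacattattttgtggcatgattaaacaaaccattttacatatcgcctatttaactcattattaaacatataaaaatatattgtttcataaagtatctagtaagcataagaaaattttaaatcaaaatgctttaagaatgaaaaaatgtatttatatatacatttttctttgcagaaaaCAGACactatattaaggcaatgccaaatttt
Ric8b: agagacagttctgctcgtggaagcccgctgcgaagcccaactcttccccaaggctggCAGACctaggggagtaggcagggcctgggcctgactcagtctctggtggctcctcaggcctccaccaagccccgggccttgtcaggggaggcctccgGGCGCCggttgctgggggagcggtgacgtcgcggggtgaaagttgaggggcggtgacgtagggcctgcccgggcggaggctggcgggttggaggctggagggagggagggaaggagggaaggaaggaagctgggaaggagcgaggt
The Olfr1350 window was 45.3% GC with 5 CpG dinucleotides, Olfr3 34% with 0, Olfr1168 33.3% with 2 and Olfr1036 23.7% with 1, against 68.3% and 17 for Ric8b. CAGAC on either strand occurred 3 times in the Olfr3 window, 1 time each in Olfr1350, Olfr1036 and Ric8b, and in Olfr1168 these letters were not found.

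Receptor promoters as a group were AT-rich. The median GC content of their 740 windows was 35.3% ± 6.28 (SD), against 53% ± 11.1 for the 32111 windows of other genes. The median window held 1 CpG against 7, and 33.0% of receptor windows held none against 4.79%. CAGAC was present on either strand in 40.4% of receptor windows and in 49.6% of all windows of the same length, and GGCGCC in 0 of 740 against 11.9%. TAATTA, a core of homeodomain sites, was present in 17.8% against 5.29%, and TATAAA in 39.5% against 13.6%. The EBF core, searched as TCCC, any 2 bases, then GGG, was present in 2.70% against 6.56%. The receptor windows therefore held the SMAD letters less often, and the AT-rich letters more often, than the average window. For most receptors the annotated start may not be a transcription start, so a window may miss the promoter in use. All 5 motifs were searched on both strands, none contains another, and a match is only a description of the letters.

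Both channels were dim over receptor genes, and the immunoprecipitates were dimmer than the inputs. Signals are given as log2 values over the median probe of the same array. The median receptor gene had an input signal of -0.30 for SMAD1/5, -0.998 for SMAD2 and -1.70 for SMAD4, against 0.60, 0.05 and 0.02 for other genes. That is 1.86-fold, 2.06-fold and 3.29-fold less DNA signal before any antibody was involved. The immunoprecipitate signal was -1.37, -1.31 and -1.84, against -0.10, 0.15 and 0.03, which is 2.41-fold, 2.76-fold and 3.65-fold lower. The input lay below the median of the other genes in 88.8%, 93.7% and 97.3% of receptor genes for SMAD1/5, SMAD2 and SMAD4. The immunoprecipitate did so in 91.4%, 95.7% and 96.6%.

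The dimness reached the detection limit on the SMAD1/5 and SMAD2 arrays. Of the receptor probes, 62.8% were well above background in the SMAD1/5 input, 73.7% in the SMAD2 input and 98.2% in the SMAD4 input, against 80.4%, 87.9% and 99.7% of other probes. In the immunoprecipitates the shares were 88.4%, 74.7% and 97.9%, against 96.3%, 94.5% and 99.8%. Below the limit the scanner software wrote a substitute value, in 37.0%, 26.1% and 1.80% of receptor probes for the inputs, and such values have no order among themselves. The SMAD4 arrays were read by a later software version with another protocol (9.5.3.1 against 9.1.3.1), so the antibody and the extraction cannot be told apart for SMAD4.

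Because the immunoprecipitate was lower by more than the input, the log2 ratio of immunoprecipitate over input of receptor genes lay below that of other genes with every antibody. For SMAD1/5 the median receptor gene was at -0.55 ± 0.69 (SD over 884 genes) and the median other gene at -0.20 ± 0.53 (16214 genes), a difference of -0.35 ± 0.029 (SE over genes). For SMAD2 the medians were -0.36 ± 0.32 (883 genes) and 0.02 ± 0.29, a difference of -0.38 ± 0.014, and for SMAD4 -0.06 ± 0.42 and 0.10 ± 0.31, a difference of -0.16 ± 0.018. On the linear scale these are 1.27-fold, 1.30-fold and 1.12-fold lower ratios. The shift was smaller than the spread between genes for SMAD1/5 and SMAD4, whereas for SMAD2 89.2% of receptor genes lay below the other genes' median, against 73.4% for SMAD1/5 and 65.8% for SMAD4. Of the 883 receptor genes with all 3 ratios, 427 (48.3%) lay below the other genes' median with every antibody, against 14.4% of other genes, and 19 lay above it with every antibody. The size of the shift depended on the processing: over the alternatives tried it ran from -0.41 to -0.06 for SMAD1/5, from -0.48 to 0.02 for SMAD2, where normexp background correction turned its sign, and from -0.61 to -0.04 for SMAD4.

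**Figure D1:**
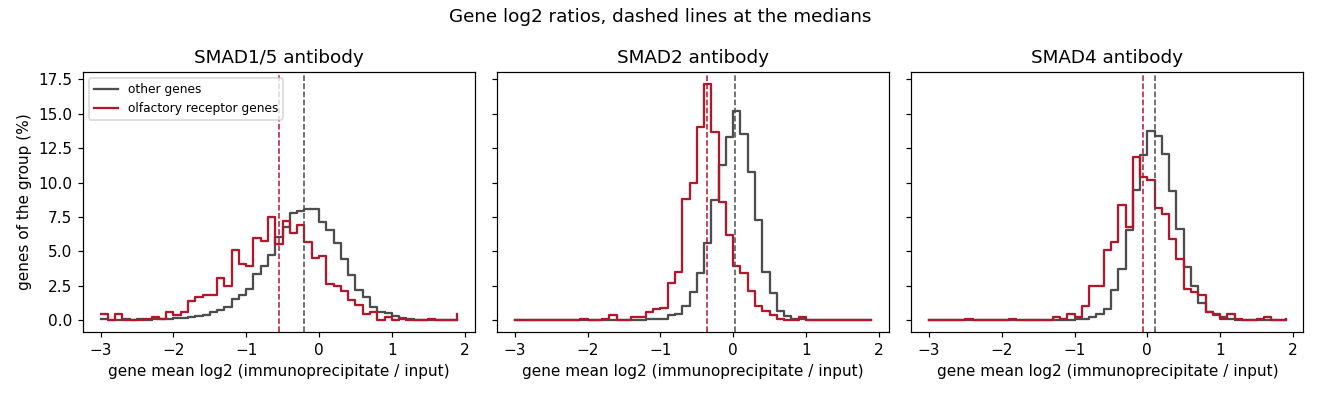
Distribution of the gene mean log2 ratio of immunoprecipitate over input (horizontal axis) as the percent of genes in each group (vertical axis) for 3 antibodies; red, olfactory receptor genes; grey, all other genes; dashed lines, medians; values beyond the axis are drawn in its end bins. The receptor distribution is shifted to lower ratios, with medians of -0.55 against -0.20, -0.36 against 0.02, and -0.06 against 0.10.

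The slides of a pair gave the same direction for each antibody. For SMAD1/5 the difference was -0.52 ± 0.043 (SE) on array 1 and -0.22 ± 0.037 on array 2, for SMAD2 it was -0.38 ± 0.021 and -0.38 ± 0.018, and for SMAD4 -0.17 ± 0.027 and -0.14 ± 0.025. The arrays hold different receptor genes, mostly of different chromosomes, so slide, chromosome and gene content cannot be told apart.

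Set beside probes of other genes with equal input on the same array (20 bins), the receptor ratios were lower, by an amount that depended on the processing. The matched difference was -0.60 ± 0.020 (SE over genes) for SMAD1/5, -0.61 ± 0.012 for SMAD2 and -0.69 ± 0.017 for SMAD4. Over the alternatives tried it ran from -0.63 to -0.0033, from -0.62 to -0.17 and from -0.71 to -0.16, and the value of -0.0033 for SMAD1/5 came from dividing by the mean input of the 3 antibodies. As first given, the matched ratio was below the other genes' median for 85.9%, 93.3% and 90.7% of receptor genes. With the probes of an array cut into 5 equal groups by input, those of other genes in the dimmest group had high ratios, with medians of 0.48, 0.66 and 1.10, and receptor probes in that group had -0.54, -0.12 and 0.24. The brightest group gave -3.31, -0.50 and -0.55 for receptor probes against -1.88, -0.22 and -0.43. The input used for matching is also the denominator of the ratio. Matched instead on the mean input of the other antibodies' arrays, the differences were -0.28, -0.29 and -0.16.

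The low ratio of receptor genes went together with the base composition of their promoters. Among receptor genes, promoters under 30% GC had median ratios of -0.91 (SMAD1/5), -0.40 (SMAD2) and -0.21 (SMAD4) over 94 genes. Receptor promoters of 45% GC or more had -0.24, -0.01 and 0.21 over 74 genes. Other genes with promoters under 30% GC, of which there were 26, had -0.81, -0.36 and -0.18, close to the receptors of that range. In the range from 30% to 35% GC, 251 receptor genes had -0.62, -0.43 and -0.14, and 95 other genes had -0.62, -0.32 and -0.08. From 35% to 40% GC, 202 receptor genes had -0.49, -0.37 and -0.06, and 318 other genes had -0.38, -0.24 and 0.05. At 45% GC or more, 10990 other genes had -0.20, 0.04 and 0.10. Over 738 receptor and 12157 other genes with a promoter window, the mean difference from other genes in the same of 20 GC bins was -0.11 ± 0.024 (SE) for SMAD1/5, -0.11 ± 0.011 for SMAD2 and -0.04 ± 0.015 for SMAD4. For the input the GC-matched difference was -0.16 ± 0.026, -0.21 ± 0.019 and -0.40 ± 0.027, and for the immunoprecipitate -0.26 ± 0.029, -0.33 ± 0.019 and -0.44 ± 0.028. Across receptor genes the rank correlation of promoter GC with the SMAD4 input was 0.505, and with the ratios it was 0.292, 0.300 and 0.348. Across the other genes it was 0.245 with the SMAD4 input, and only 0.0046, 0.116 and -0.032 with the ratios. These correlations are across genes of single arrays, which are not independent replicates. The promoter window covers only part of the probes of a gene, and the GC content of the probes themselves was not analysed here.

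**Figure D2:**
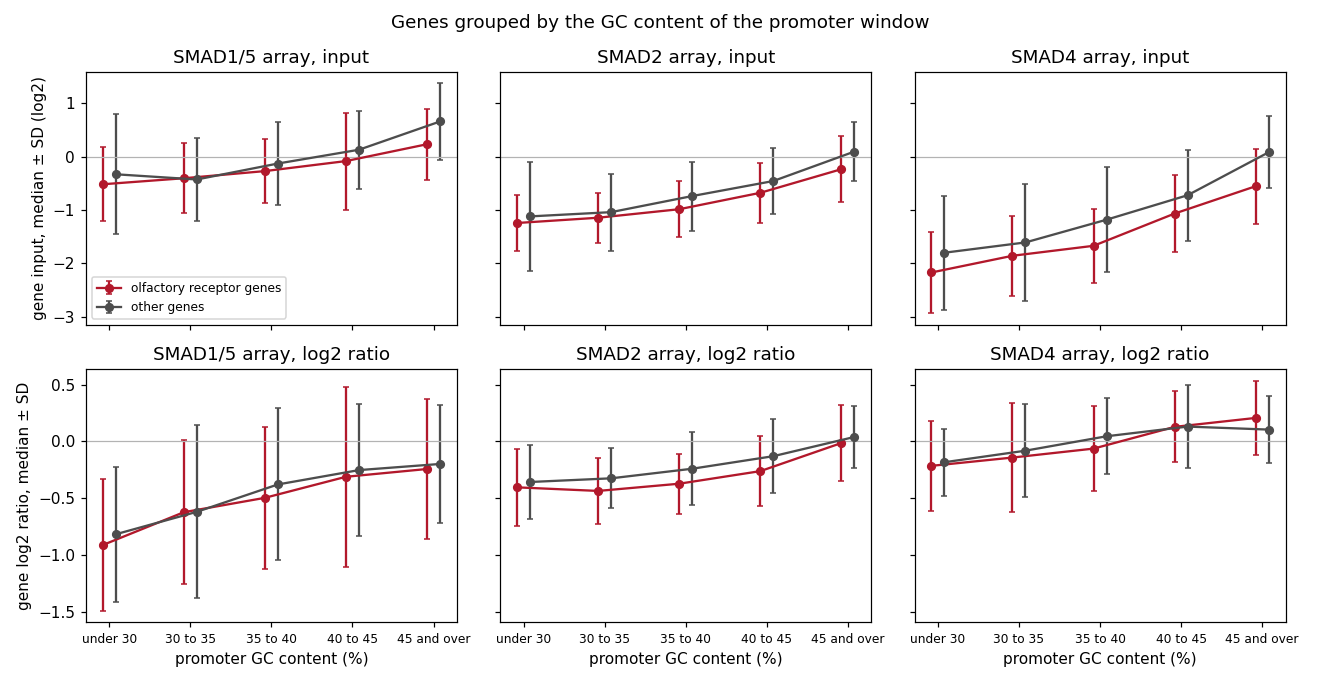
Median gene input (upper row, log2 over the array median) and median gene log2 ratio (lower row) against the GC content of the promoter window in 5 ranges (horizontal axis, percent) on the arrays of each antibody; red, olfactory receptor genes; grey, other genes; bars, SD over genes. The receptor inputs rise with GC content on every pair of arrays, and within a range the bars of receptor and other genes overlap for every antibody.

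Along the genes, the coding part stood out from its surroundings. From 250 to 1000 bp after the annotated start the mean receptor probe had an SMAD4 input of -0.46 and an immunoprecipitate of -0.27 (1783 probes), against -1.78 and -2.01 from 1000 to 250 bp before the start (2411 probes) and -1.89 and -2.12 from 1000 to 2500 bp after it (3370 probes). SMAD2 showed the same profile, with inputs of -0.18, -1.08 and -1.09 and immunoprecipitates of -0.19, -1.38 and -1.42 at these positions. The SMAD1/5 inputs were 0.33, -0.29 and -0.34, and the immunoprecipitates -0.42, -1.53 and -1.52. Probes of other genes peaked at the start site instead, within 250 bp on either side, where the inputs were 1.53 (SMAD1/5), 0.65 (SMAD2) and 0.61 (SMAD4). At the receptors' starts the inputs were -0.25, -0.86 and -1.42.

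The ratio followed the same profile. Within the coding stretch the mean receptor ratio was -0.19 for SMAD1/5, -0.09 for SMAD2 and 0.29 for SMAD4, and from 1000 to 250 bp before the start it was -0.68, -0.38 and -0.13. Matched on input, the coding probes differed from other genes by -0.13, -0.14 and 0.05, and the probes just upstream by -0.74, -0.68 and -0.83. The input-matched deficit of receptor genes was thus carried by probes outside the coding stretch, upstream and downstream alike. Without matching, the mean receptor ratio within 250 bp of the start was -0.56, -0.24 and 0.18, against -0.61, 0.04 and -0.05 for other genes. In the coding stretch other genes had -0.29, 0.07 and 0.11. At both positions the unmatched receptor ratio was thus lower only for SMAD2. Left without the probes inside and downstream of genes, the difference from other genes was -0.41, -0.37 and -0.16.

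**Figure D3:**
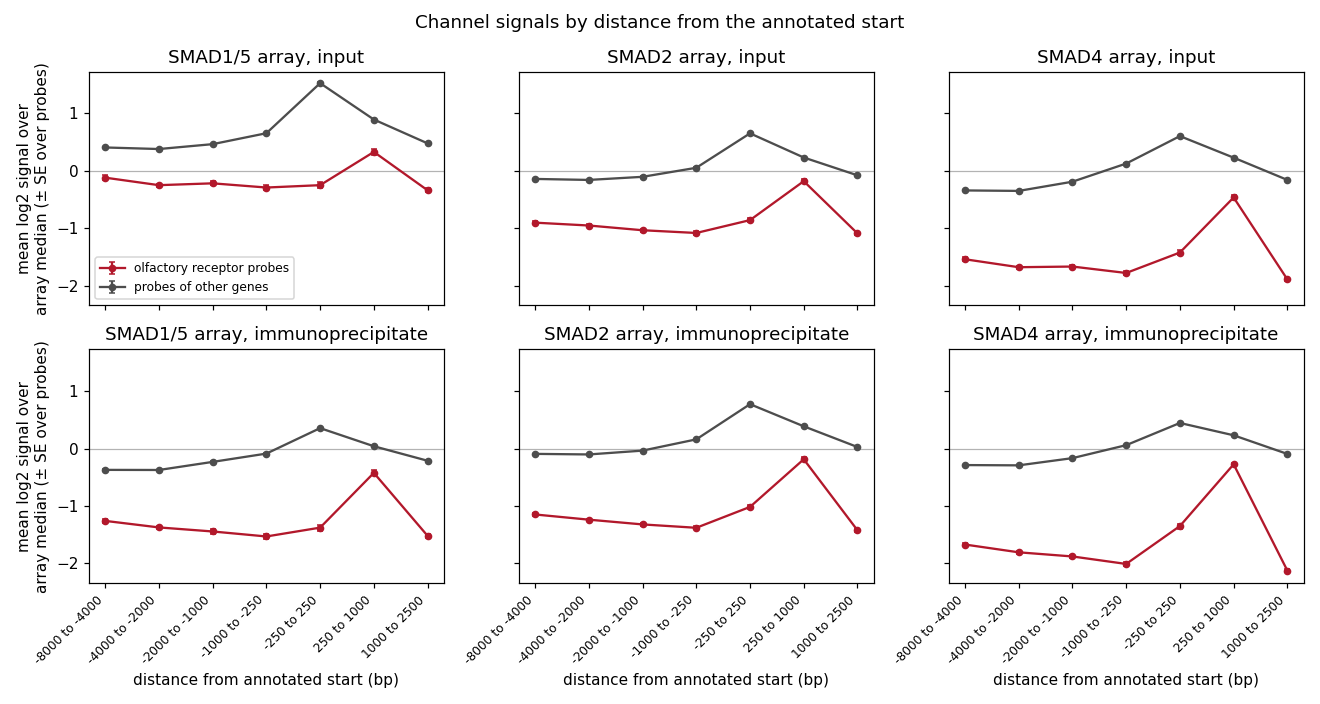
Mean log2 signal over the array median (vertical axis) of the input (upper row) and the immunoprecipitate (lower row) in 7 ranges of distance from the annotated start (horizontal axis, bp, negative upstream) for the arrays of each antibody; red, receptor probes; grey, probes of other genes; bars, SE over probes, mostly smaller than the points. Other genes are brightest at the start, receptors from 250 to 1000 bp after it, where SMAD4 input reaches -0.46.

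Windows of neighbouring probes were examined next. A window joins 3 or more probes lying within 500 bp of a central one, its value is their average log2 ratio, and its z counts robust SDs from the median window of that array. Enriched windows reached a z of 4 and held 2 or more probes past the array's 95th percentile, and low windows met the same rule turned over. On the log2 scale the threshold was 4.61 and 4.17 on the SMAD1/5 arrays, 2.29 and 2.23 on the SMAD2 arrays, and 2.30 and 2.29 on the SMAD4 arrays. Windows existed for 827 of the receptor genes. The other 57 had too few neighbouring probes.

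With the SMAD1/5 antibody 0 of 827 receptor genes had an enriched window, and the share over all genes was also 0%. The highest receptor windows were those of Olfr19 (z = 2.39), Olfr214 (2.36), Olfr914 (2.31), Olfr1396 (2.27) and Olfr315 (2.08). With SMAD2 the count was 0 of 827 as well, where 0.0656% of all genes were called, and the highest windows were those of Olfr690 (3.30), Olfr397 (3.24), Olfr39 (3.07), Olfr398 (2.88) and Olfr543 (2.84).

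SMAD4 gave 35 enriched receptor genes of 827 (4.23%), where 2.5% of all genes and 2.41% of other genes were called. The share was 4.63% against 2.54% on array 1 and 3.84% against 2.28% on array 2. The strongest was Olfr1350 on chromosome 7, whose window of 3 probes lay 79 bp before the start with a mean log2 ratio of 3.28 ± 0.84 (SD over probes) and a z of 5.75. Olfr95 on chromosome 17 (z = 5.31) and Olfr456 on chromosome 6 (5.07) followed, then Olfr874 and Olfr875 (4.98 and 4.80), neighbours on chromosome 9 of the same receptor family. The 35 windows were spread over 12 chromosomes, 17 of them had only 3 probes, and 9 were centred within 1000 bp of the start.

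Windows picked for a high SMAD4 ratio favour a low SMAD4 input, so their channels are given as a description. In all 35 the SMAD4 input was lower than the averaged inputs of the other antibodies at the same probes by 1 log2 unit or more, whereas the immunoprecipitate lay at least 1 unit above that of the others in 2 and above it by any amount in 23, with a median difference of 0.21. The median window had inputs of -0.78 (SMAD1/5), -1.13 (SMAD2) and -3.22 (SMAD4), and immunoprecipitates of -1.38, -1.16 and -0.91. In 30 of the 35 the SMAD4 immunoprecipitate was below the array's median probe. Over whole receptor genes this held for 850 of 884, with a median of -1.84, and their median inputs were -0.30, -0.998 and -1.70. Beside probes of other genes with equal SMAD4 input, the 35 windows had ratios higher by 0.81 to 1.98, which the picking also favours. Among the enriched windows of the 385 other genes the low input was found in 96.9%, the immunoprecipitate raised by 1 unit in 13.2%, and an immunoprecipitate below the array's median in 67.8%, with a median of -0.37. Divided by the mean input of the 3 antibodies, 0 receptor genes were enriched, and 4 were with the authors' deposited log2 values and 1 after normexp correction. At the same positions the median z was 0.11 for SMAD1/5 and -0.11 for SMAD2.

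At Olfr1350 the window ratio was 1.43 for SMAD1/5, 0.75 for SMAD2 and 3.28 for SMAD4, with inputs of -0.06, -0.63 and -3.03 and immunoprecipitates of 0.69, 0.21 and 0.14. The immunoprecipitates thus differed little and the SMAD4 input stood apart. Olfr214 on chromosome 6 was the only receptor among the 35 whose window also reached a z of 2 with the other antibodies. Its window of 3 probes, 33 bp before the start, had ratios of 2.64 (z = 2.36) for SMAD1/5, 1.16 (z = 2.00) for SMAD2 and 2.52 ± 1.19 (z = 4.38) for SMAD4. The SMAD1/5 immunoprecipitate there was 1.38 above the array median, and those of SMAD2 and SMAD4 were 0.12 and 0.26, against inputs of -0.59, -1.13 and -2.14. The gene as a whole did not share this: its mean ratios over all probes were -0.39, -0.52 and -0.24.

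**Figure D4:**
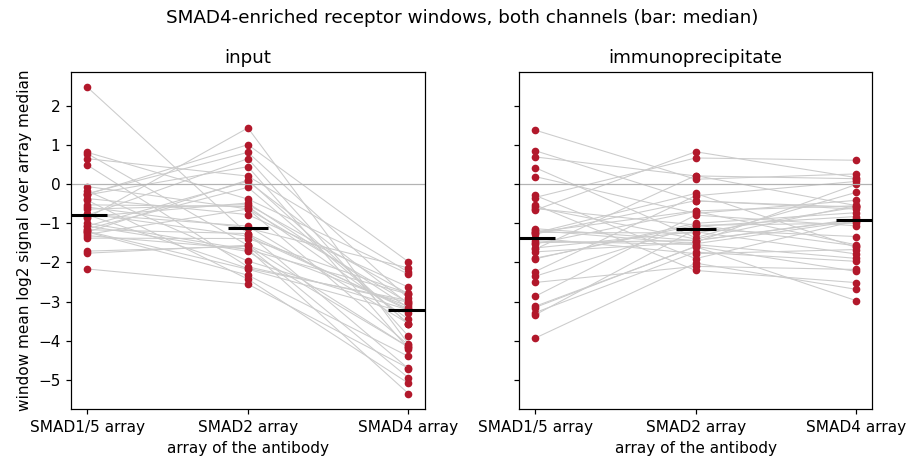
Input (left) and immunoprecipitate (right) of the 35 receptor windows enriched with SMAD4, as window mean log2 signal over the array median (vertical axis), on the arrays of each antibody (horizontal axis); a point is a window, grey lines join the same window, and black bars are medians. The SMAD4 inputs have a median of -3.22 against -0.78 and -1.13, and the immunoprecipitates overlap between the arrays.

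Low windows were called in 10 of 827 receptor genes for SMAD1/5 (1.21%), where 2.64% of all genes were called, in 15 for SMAD2 (1.81%), where 0.334% were, and in 3 for SMAD4 (0.363%), where 0.0477% were. Windows picked for a low ratio favour a high input on their own array, so the channels of low windows are given as a description. The SMAD1/5 windows had an input far above the other arrays, from 2.79 to 6.82 and with a median of 5.71, and a median immunoprecipitate of -0.07. The lowest were those of Olfr1377 on chromosome 11 (z = -5.66), Olfr605 on chromosome 7 (-5.23) and Olfr1357 on chromosome 10 (-5.21), and at these positions the SMAD4 inputs were 0.13, -0.05 and -1.57. For SMAD2 the 15 windows had a median input of 0.59 and a median immunoprecipitate of -1.81, and in 11 the input was at least 1 unit above the mean of the other arrays. Olfr891 on chromosome 9 (z = -5.49), Olfr1028 on chromosome 2 (-5.06) and Olfr136 on chromosome 17 (-4.58) were the lowest. Chromosome 2 held 6 of these windows and chromosome 9 held 5, and they hold 132 and 124 of the 827 receptor genes with windows. Of the 15 windows, 12 had only 3 probes. The SMAD4 low windows belonged to Olfr1406 (z = -4.21), Olfr556 (-4.14) and Olfr1288 (-4.02), each of only 3 probes, with a median immunoprecipitate of -2.95. These counts moved with the processing: SMAD1/5 low windows numbered 85 after normexp correction and 52 with the authors' deposited log2 values, SMAD2 ones 2 and 36, and SMAD4 ones 0 and 0. Divided by the mean input of the 3 antibodies, they numbered 4, 31 and 59.

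Over whole genes, 206 of 864 receptor genes with at least 3 probes had a mean SMAD1/5 ratio at or below a 2-fold decrease (23.8%), where 7.81% of all genes did, and 2 lay at or above a 2-fold increase (0.231% against 0.544% of all genes). SMAD2 gave 17 of 863 down (1.97%), where 0.23% of all genes were, and 0 up, where 0.0236% were. SMAD4 gave 8 of 864 down (0.926%), where 0.0886% of all genes were, and 7 up (0.81%), where 0.42% were. In all 3 comparisons receptor genes were a larger share of the down calls than of the genes. In the 206 SMAD1/5 genes a median of 50% of the input probes were well above background, and 151 of them were on array 1. With the authors' deposited log2 values the down counts were 16 (SMAD1/5), 56 (SMAD2) and 3 (SMAD4). After normexp correction they were 2, 10 and 1, and 101 SMAD2 genes were 2-fold up. With the mean input of the 3 antibodies, 37 SMAD1/5 and 203 SMAD4 genes were down.

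The receptors that ranked highest over the 3 antibodies were Olfr3, Olfr93 and Olfr543. Olfr3 on chromosome 2 had gene ratios of 0.39 (SMAD1/5), 0.24 (SMAD2) and 1.66 (SMAD4) over 6 probes, with SDs over probes of 1.81, 0.82 and 1.31. Its SMAD4 input was -2.82 and its immunoprecipitate -1.28, and the SMAD4 ratio was 0.25 after normexp correction and 0.12 with the mean input of the 3 antibodies. Olfr543, a class I receptor on chromosome 7 with 36 probes, had 0.51 ± 1.87 (SD), 0.55 ± 1.13 and 0.43 ± 0.98, and its SMAD4 input and immunoprecipitate were 0.05 and 0.37, so its signals were as bright as those of the average gene. Olfr93 on chromosome 17 had 0.68, 0.46 and 0.42 over 10 probes. At the other end Olfr1168 had -2.77 ± 1.26 (SD), -1.10 ± 0.81 and -0.99 ± 1.09 over 5 probes, Olfr1036 had -1.75, -0.69 and -0.78 over 6 probes, and Olfr1206 had -1.22, -0.73 and -0.81 over 16 probes. All 3 are on chromosome 2. The SE over probes of Olfr1036 was 0.91, 0.46 and 0.58. Only 16.7% of its probes were well above background in the SMAD1/5 input, and 16.7% in the SMAD2 immunoprecipitate. After normexp correction the SMAD1/5 ratio of Olfr1168 was -0.76 and that of Olfr1206 -0.11.

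Some receptors have known ligands or roles. Olfr2, a receptor for octanal, had gene ratios of -0.40, -0.42 and 0.82 for SMAD1/5, SMAD2 and SMAD4. Olfr16, a receptor for lyral that is also found in sperm, had -1.21, -0.0034 and 0.46, where the SMAD4 value was -0.28 with the mean input of the 3 antibodies, and Olfr151, a receptor for acetophenone, had -0.16, -0.36 and -0.03. Olfr78, which responds to lactate and short chain fatty acids and acts in kidney and carotid body, had 0.27, 0.08 and 0.60 over 10 probes. Olfr544, a receptor for azelaic acid, had -0.81, 0.25 and 0.15, with an SMAD4 input of 0.01, and its promoter at 51.7% GC was among the GC-rich receptors. None of the 5 had an enriched window with any antibody, and the SD over the probes of these genes ran from 0.30 to 2.23.

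Chromosomes differed in how far their receptors stood from their other genes. Of the 13 chromosomes with at least 10 receptor genes, the receptors had the lower median ratio on 13 for SMAD2, on 11 for SMAD1/5 and on 9 for SMAD4. Chromosome 2, with 143 receptor genes and a promoter GC median of 33%, had the widest gaps for every antibody, with medians of -0.95 (SMAD1/5), -0.44 (SMAD2) and -0.18 (SMAD4) against -0.23, 0.04 and 0.13 for the other genes there. Chromosome 11, with 79 receptor genes and 40.3% GC, had -0.03, -0.22 and 0.10, and its SMAD4 input was -0.67 against -2.08 on chromosome 2. Chromosome 2 is on array 1 and chromosome 11 on array 2, so chromosome and slide cannot be told apart here. Over all receptor genes the SMAD1/5 difference from other genes was -0.52 on array 1 and -0.22 on array 2. On chromosome 4, with 25 receptor genes and 45.5% GC, the medians were -0.25, -0.09 and 0.13, and the SMAD4 input was -0.44. Receptors of chromosomes 4 and 11 were therefore the brightest among these 13 in the SMAD4 input, and their promoters were among the more GC-rich. The other genes of chromosomes 4 and 11 had SMAD4 inputs of 0.10 and 0.70, against 0.02 for all other genes. The brightness of chromosome 11 was thus not confined to its receptors. On chromosome 1 the receptors had a promoter GC median of 43.3% and a dimmer SMAD4 input of -1.23.

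**Figure D5:**
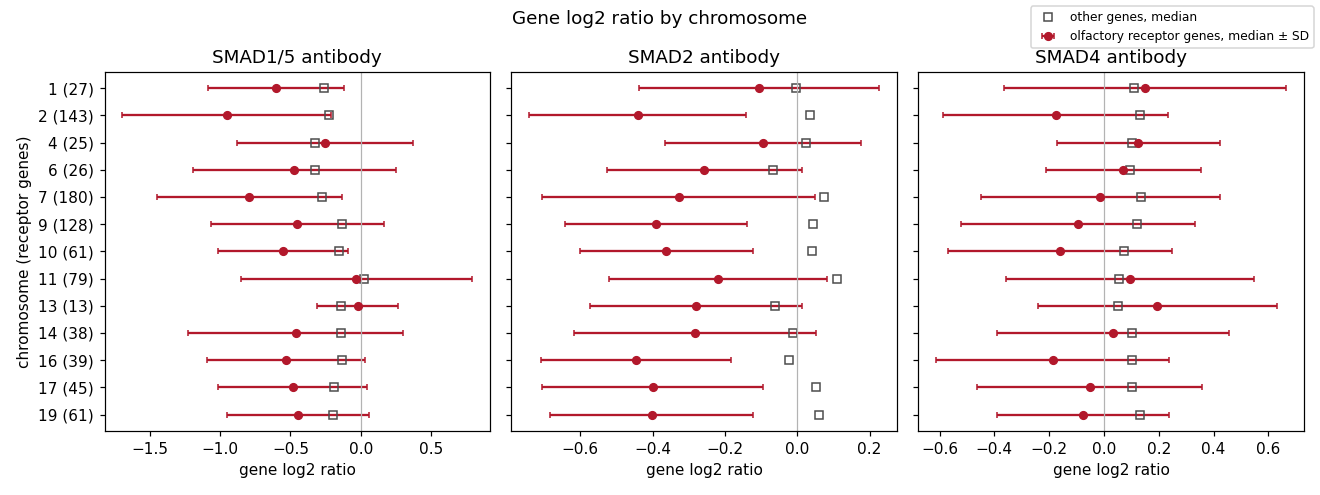
Median gene log2 ratio (horizontal axis) of receptor genes (red, bars are SD over genes) and of other genes (open squares) on the 13 chromosomes with at least 10 receptor genes (vertical axis, number of receptor genes in brackets) for each antibody. Receptors lie to the left of other genes on all 13 for SMAD2, and on 11 and 9 for SMAD1/5 and SMAD4.

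The classes differed most for SMAD1/5. The 78 class I genes had median ratios of -0.83 (SMAD1/5), -0.28 (SMAD2) and 0.02 (SMAD4), against -0.51, -0.36 and -0.06 for all 760 class II genes. Matched on input, the SMAD1/5 means were -0.82 ± 0.078 (SE over genes) and -0.57 ± 0.021. All class I genes lie on chromosome 7, and so on array 1, whereas class II genes are on both arrays. The matched SMAD1/5 mean over receptor genes was -0.77 on array 1 and -0.43 on array 2. Class I and the slide therefore cannot be told apart when all class II genes are compared. The 97 class II genes of chromosome 7 were nearer to class I, with median ratios of -0.72, -0.38 and -0.04 and a matched SMAD1/5 mean of -0.70 ± 0.057. The SDs over genes of the ratio ran from 0.31 to 0.73 in these groups. On chromosome 7 the SMAD4 inputs were -1.80 for class I and -1.60 for class II. An enriched SMAD4 window was called in 5 of 74 class I genes and 4 of 91 class II genes of that chromosome, and in 30 of all 714 class II genes, where 2.5% of all genes were called. The differences between the classes in median ratio were smaller than the SD over genes within either.

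Vomeronasal receptors, the pheromone receptors that are also clustered and silent outside their sensory neurons, were much like the olfactory ones in median signals and unmatched ratios. Their 119 genes had median ratios of -0.71 (SMAD1/5), -0.31 (SMAD2) and -0.04 (SMAD4), inputs of -0.32, -0.98 and -1.70 and immunoprecipitates of -1.52, -1.16 and -1.82. Olfactory minus vomeronasal was 0.16 ± 0.089 (SE over genes), -0.04 ± 0.039 and -0.01 ± 0.049, so each difference was within 2 SE. Matched on input, the vomeronasal SMAD1/5 mean was lower, at -0.80 ± 0.056 against -0.60 ± 0.020 for olfactory receptors. The matched SMAD2 and SMAD4 means were -0.58 and -0.71 against -0.61 and -0.69. Of 101 vomeronasal genes with windows, 0 had an enriched SMAD4 window against 35 of 827 olfactory receptor genes, where 2.5% of all genes were called.

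Most genes of the olfactory signalling chain and most regulators of receptor choice were brighter than the receptors. Of the 22 listed, 21 were measured, and their median ratios were -0.22 (SMAD1/5), 0.08 (SMAD2) and 0.15 (SMAD4), with SMAD4 inputs and immunoprecipitates at medians of 0.15 and 0.16. Cnga2, a subunit of the cyclic nucleotide-gated channel, was the exception and as dim as the receptors, with inputs of -0.72, -0.73 and -1.50 and immunoprecipitates of -1.71, -0.88 and -1.58. Dim signal was not particular to receptors. The 593 other genes of the X chromosome had median inputs of -0.35, -0.61 and -1.35 and immunoprecipitates of -1.23, -0.65 and -1.20. Ano2, the calcium-activated chloride channel of the cilia, was the only one with an enriched SMAD4 window (z = 4.34), where 2.5% of all genes were called. Its SMAD1/5 ratio of -1.09 was the only one past 2-fold, where 7.81% of all genes were 2-fold down. Gnal, the olfactory G protein, had the only low window, with SMAD1/5, where 2.64% of all genes were called. Such single calls among 21 genes do not set the list apart from all genes. The others include Adcy3, the adenylyl cyclase (-0.22, 0.36 and 0.15), and Lhx2, a regulator of receptor promoters (0.36, 0.20 and -0.29).

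The order of receptor genes was most alike between antibodies in the immunoprecipitates. Over 883 genes the correlation of the immunoprecipitate was 0.72 for SMAD1/5 with SMAD2 and 0.90 for SMAD2 with SMAD4, and over 884 genes 0.77 for SMAD1/5 with SMAD4. For the input it was 0.44, 0.74 and 0.43, for the ratio 0.11, 0.27 and 0.25, and for the ratio matched on its own input 0.47, 0.68 and 0.61. Other genes gave 0.75, 0.91 and 0.81 for the immunoprecipitate. The arrays share probe sequences and base composition, and the genes are not independent replicates.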

How the data were processed

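DNA from 3 immunoprecipitations and their inputs was measured on 6 arrays with 2 colours, 1 biological replicate per antibody. The deposited scanner files give the intensity of each spot, background-subtracted and dye-normalised by Agilent Feature Extraction per the file headers (9.1.3.1 for SMAD1/5 and SMAD2, 9.5.3.1 for SMAD4), and per the file headers other columns hold that program's flags for each spot. The authors' deposited log2 values, for which the submitters' processing notes name limma, served as an alternative, and their exact centring and scale are unknown. No dye was swapped, so a dye effect cannot be told apart from enrichment.

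Outlier-flagged spots were left out (0.0131% to 1.44% of probes per antibody) and the log2 ratio of red to green was set to 0 at the median probe of every array. A gene value is the mean over its probes. Differences of medians carry an SE over genes, and matching used 20 input bins per array. Tools were Python 3.11.15, pandas 2.3.3, numpy 2.4.6 and limma 3.58.1 (normexp, offset 50). The steps were checked on simulated data. Names come from the array annotation, and RefSeq (GRCm38.p6) gave names and promoters only, since no source used here names the genome build of the probes. Members, lists and rules were chosen with earlier results of these data known. Genes named individually were, per antibody, the 5 highest and the 3 lowest by window, the 3 highest and lowest by mean rank over antibodies (at least 5 probes), and much studied receptors where measured, with 5 of 9 found under their names. Genes in the signalling list were named when called, with Adcy3, Cnga2 and Lhx2 chosen after their values were seen.

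Alternatives were normexp correction, the authors' values, the mean input of the antibodies, bright probes only, upstream probes only, the median over probes, other matching, and other window and probe minimums.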

Additional observations from a re-analysis of the deposited data

How the results depend on the processing

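Of 159 alternative values for the differences and counts, 81 stayed close to the reported value, 77 moved and 1 changed sign. Close means within 1.96 SE over genes, or within 1.5 times for a count, and where no construction shows it the cause was not tested. Differences are log2, and 3 values in a row stand for SMAD1/5, SMAD2 and SMAD4.

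With normexp correction the difference from other genes was -0.18 (SMAD1/5), 0.022 (SMAD2, sign changed) and -0.35 (SMAD4), and the input-matched difference -0.16, -0.25 and -0.43. Enriched windows numbered 3 (SMAD1/5) and 1 (SMAD4), low windows 85, 2 and 0, genes 2-fold up 1, 101 and 0, and genes 2-fold down 2, 10 and 1. With the authors' deposited values the differences were -0.059, -0.48 and -0.26, the matched ones -0.26 (SMAD1/5) and -0.52 (SMAD4), and SMAD4 had 4 enriched windows. Low windows were then 52, 36 and 0, genes up 1 (SMAD1/5) and 0 (SMAD4), and genes down 16, 56 and 3. With the mean input of the 3 antibodies the differences were -0.057, -0.20 and -0.61, the matched ones -0.0033, -0.17 and -0.60, SMAD4 had 0 enriched windows, low windows were 4, 31 and 59, genes up 9 (SMAD1/5) and 0 (SMAD4), and genes down 37 (SMAD1/5) and 203 (SMAD4).

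With bright probes only the SMAD1/5 difference was -0.19, the matched ones -0.54 (SMAD1/5) and -0.57 (SMAD2), genes up 8 and 1, and SMAD2 genes down 37. Leaving out substitute values, chosen after seeing the data, gave the same rounded values: -0.19, -0.54, -0.57, 8, 1 and 37. Matching on promoter GC, also chosen after seeing the data, gave differences of -0.11, -0.11 and -0.040, and matching on the other inputs -0.28, -0.29 and -0.16. The median over probes gave -0.21 for SMAD2. Upstream probes only gave 7 SMAD2 low windows and, for SMAD4, 21 enriched and 0 low windows and 14 genes down. A z of 3 gave 2 (SMAD2) and 105 (SMAD4) enriched and 63, 114 and 53 low windows. Windows of at least 4 probes gave 6 SMAD2 low windows and, for SMAD4, 23 enriched and 0 low ones. A minimum of 5 probes per gene gave 1 SMAD1/5 gene up and 4 SMAD4 genes down.

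Among 714 alternative values for named receptors, 627 stayed close and 83 moved. Their sign changed in 89, of which 51 had stayed close and 34 had moved, such as Olfr875 with SMAD4 (0.80, and -0.68 with the mean input) and Olfr136 with SMAD2 (-0.83, and 0.45 with normexp). The other 4 began past 2-fold and were all for Olfr556 with SMAD1/5 (-1.44 over 4 probes), which was 0.027 with normexp, 0.17 with the authors' values, 2.02 with bright probes only and 2.01 without substitute values. The median of all genes shifted by 0.28 (normexp) and 0.15 (mean input) for SMAD1/5 and by -0.13 (mean input) for SMAD4. No paired analysis was possible because each antibody has 1 biological replicate. Signal over background limits the receptor ratios, since 37.0% of receptor probes in the SMAD1/5 input and 26.1% in the SMAD2 input held a substitute value.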
